A study of Mus musculus with 40 samples.

Results

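Macrophages lacking the deubiquitinase Otulin were compared after 24 h of lipopolysaccharide (LPS) and before any LPS, to describe the transcriptional state that remains 1 day into stimulation. The 8 libraries used are the 4 titled as Otulin knock-out at 24 h and the 4 titled as Otulin knock-out before treatment, out of 40 libraries in 10 groups (both genotypes at 0, 3, 6, 12 and 24 h, 4 biological replicates each). Cells of the KO groups carried the genotype OtulinFL/FL LysMCreTg/WT, in which Cre recombinase is expressed from the Lyz2 (lysozyme M) locus of myeloid cells and acts on a loxP-flanked Otulin gene. The KO 24 h group had received 500 ng/ml of ultrapure Salmonella minnesota LPS, and the KO 0 h group none. Where the response is set against WT cells, these were OtulinFL/FL without Cre, at the same times and the same dose. Both genotypes thus carry the floxed allele, no group carries Cre alone, and the sources used here do not give the animals' ages. All cells were bone marrow-derived macrophages, primary cells grown from marrow for 6 days with medium conditioned by L929 fibroblasts, a source of the growth factor M-CSF that was still present in the plated cells' medium.

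LPS, a component of the outer membrane of Gram-negative bacteria, is sensed on macrophages by the receptor TLR4 with its partners MD-2 and CD14. Signalling through the adaptor MyD88 activates NF-kB and MAP kinases and induces cytokines within hours, and signalling through TRIF induces interferon beta, which acts back on the cells through JAK kinases and STAT factors to switch on antiviral genes. Otulin cleaves linear ubiquitin chains, which are built by the complex of the proteins encoded by Rnf31, Rbck1 and Sharpin and which scaffold NF-kB and cell death signalling. Prolonged LPS also slows macrophage division and changes metabolism, while negative regulators of the pathway accumulate.

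RNA was measured by 3′ tag sequencing, which reads the ends of polyadenylated transcripts, so that gene length does not enter the count. Levels are given in CPM, the share of a library's counts that a gene takes, scaled by edgeR's TMM factors, and changes as log2 fold changes with their standard errors (SE); a gene is called when edgeR's Benjamini-Hochberg adjusted p is below 0.05. Libraries held 4565711 to 5915284 counts at 24 h and 4392316 to 6290327 counts at 0 h, and at this depth genes of few CPM are measured with less precision. TMM factors ran from 0.986 to 1.03 at 24 h and from 1.22 to 1.26 at 0 h, and changes are relative to this scaling, with a median log2 fold change of −0.014 over all genes. On the second principal component of the KO libraries replicate 4 of the 24 h group stood apart, at 49.1 against 59.8 to 61.3 for the other 24 h libraries. It had 56 genes over 2-fold above and 142 over 2-fold below the mean of the other 24 h libraries, whereas these had 3 to 10 above and 21 to 47 below. Among the 0 h libraries replicate 1 departed most, with 99 genes above and 79 below, against 7 to 10 above and 22 to 48 below for the others. Without that 24 h library 4008 genes were called higher and 3902 lower, and without that 0 h library 3915 and 3857, each within 1.5 times of the counts with all libraries. Where leaving out either library changed the call of a gene described below, this is said beside its values. Replicate 3 had the low Xist (0.407 CPM at 24 h and 0.921 CPM at 0 h) and high Ddx3y (145 CPM and 140.1 CPM) of male cells at both times, and the other 3 replicates had the pattern of female cells, so each time held 1 male and 3 female libraries.

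The cells carried macrophage markers at both times. The 8 defining markers (Csf1r, Adgre1, Itgam, Cd68, Mertk, Fcgr1, Lyz2 and Spi1) summed to 5602 to 5924 CPM at 24 h and 3792 to 4944 CPM at 0 h. Markers of lymphoid cells, red cell and platelet precursors, and mast cells and basophils summed to at most 1.18 CPM in any of the 8 libraries, with Cd3e, Cd79a, Klf1 and Cpa3 among those at 0 counts throughout. Of 10 neutrophil markers 8 averaged under 1 CPM, and the sum was 19.2 to 27.7 CPM at 24 h and 16.2 to 33.2 CPM at 0 h, nearly all of it S100a8 and S100a9. The 7 monocyte markers summed to 177 to 197 CPM at 24 h and 106 to 133 CPM at 0 h, without overlap, and 5 of the 7 were called higher (against 32.8% of all genes). Among these Vcan, which encodes the matrix proteoglycan versican, averaged 51.4 CPM at 24 h and 1.35 CPM at 0 h, while F13a1, a clotting factor subunit, went the other way with 13.1 CPM at 24 h and 65.6 CPM at 0 h. In the stromal list Dcn averaged 3.44 CPM at 24 h and had 0 counts at 0 h, while Col1a1 and Lum were at 0 in all 8 libraries. The part of such cells in the changes below was not tested, and in bulk RNA fewer cells of a type and less RNA per cell cannot be told apart.

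Otulin itself, whose 3′ tag does not show whether the floxed part was removed, was counted at 51.3, 46.4, 45.3 and 52.1 CPM in the KO 24 h libraries (replicates 1 to 4, the order used throughout), against 43.6, 30.8, 31.5 and 37.2 CPM in the KO 0 h libraries. The groups did not overlap, which held for 6974 of all 12037 genes tested (57.9%). Its log2 fold change was 0.44 ± 0.11 (SE; edgeR adjusted p = 0.00104). Lyz2, whose locus drives the Cre, lay at 1909, 2122, 1923 and 2040.4 CPM at 24 h and 2432, 1615, 2037 and 1721 CPM at 0 h, with overlapping groups and a log2 difference of 0.02 ± 0.11 (adjusted p = 0.857, 95% interval −0.20 to 0.24).

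After 24 h of LPS the KO cells differed from unstimulated KO cells in 7917 of 12037 genes tested (65.8%), of which 3944 were called higher (32.8% of those tested) and 3973 lower (33.0%). Small and moderate changes made up most calls: 1645 higher and 1756 lower genes changed over 2-fold. At larger sizes rises outnumbered falls, with 728 against 535 over 4-fold, 250 against 62 over 16-fold and 170 against 21 over 32-fold. The largest rises among well measured genes were interferon-induced antiviral genes, complement factor B, inducible nitric oxide synthase and the chemokine gene Ccl5, and the largest falls were mostly genes of mitosis.

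**Figure D1:**
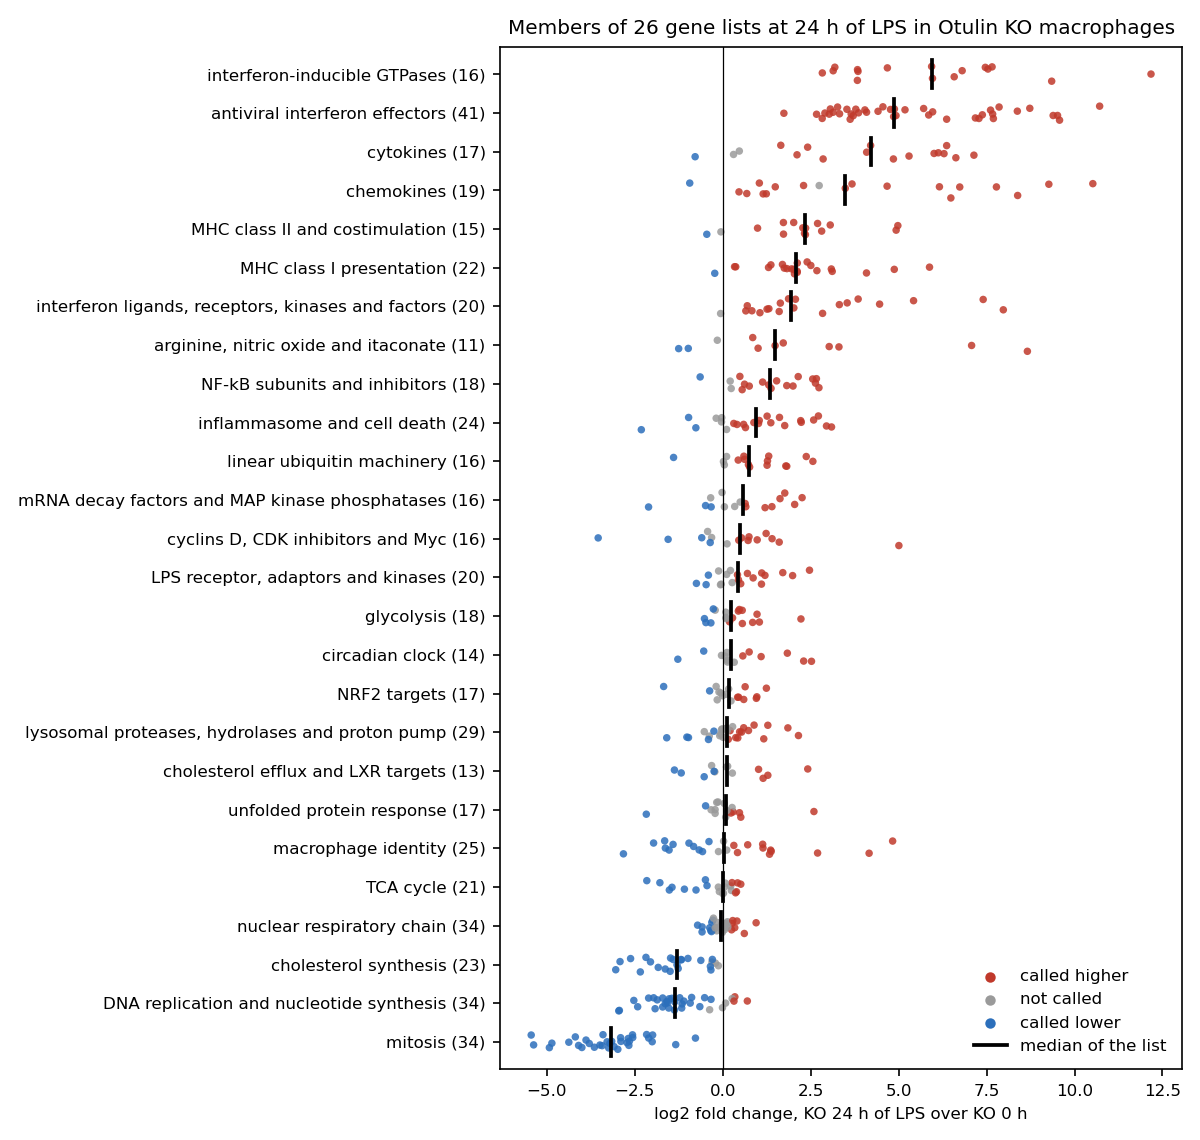
Log2 fold changes, KO 24 h over KO 0 h (horizontal axis), of the tested members of 26 gene lists (rows, number tested in brackets), with genes called higher in red, called lower in blue and not called in grey, and the median of each list as a black bar. All 41 antiviral effectors lie right of 0 and all 34 mitosis genes left of it, while lists such as the nuclear respiratory chain straddle 0.

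Antiviral effectors, a list of interferon-induced genes that holds sensors and regulators beside proteins that block viral replication, were higher throughout. In this list 41 of 41 tested members were called higher, against 32.8% of all genes tested. Their median log2 fold change was 4.86 (−0.014 over all genes). Oasl1, an oligoadenylate synthetase-like protein that in mice restrains translation of Irf7, was counted at 422, 514, 370.3 and 481 CPM at 24 h, against 0.163, 0.252, 0.368 and 0.178 CPM at 0 h. It rose by 10.71 ± 0.20 log2 (edgeR adjusted p = 4.36e-23), the largest change in the list. With 6 counts over the 0 h libraries, this SE understates the counting error. Rsad2, which encodes the radical SAM enzyme viperin, lay at 6004, 6344, 5994 and 5931 CPM at 24 h and 87.9, 96.5, 137 and 139 CPM at 0 h, a rise of 5.71 ± 0.17. This was also the largest gain in CPM of any gene the rules for naming allow. Isg15, a ubiquitin-like modifier, reached 693, 690.1, 659.8 and 681 CPM at 24 h, against 6.70, 10.9, 11.2 and 14.4 CPM at 0 h (5.97 ± 0.14). For the dynamin-like GTPase Mx1 the values were 845, 817, 845 and 644 CPM at 24 h and 2.78, 3.02, 4.05 and 3.74 CPM at 0 h (7.85 ± 0.18). In every one of these genes the lowest 24 h library lay far above the highest 0 h library. The smallest change in the list was 1.74 log2, in Eif2ak2, which encodes the RNA-sensing kinase PKR. It was named after its value was seen, as were Socs1, Socs3, Cish, Gch1 and Qdpr below.

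Several of the highest rises belonged to families of similar genes, whose tags can be shared between copies. Ifit1bl1, of the interferon-induced tetratricopeptide family, had 554, 571, 523 and 508 CPM at 24 h and 0.654, 0.629, 0.737 and 0.713 CPM at 0 h (9.57 ± 0.15). Ifit2 of the same family had 1722, 1657, 1375 and 1410.2 CPM at 24 h and 4.41, 1.89, 4.42 and 4.10 CPM at 0 h (8.73 ± 0.22). The Schlafen gene Slfn4 had 397, 351, 408 and 214 CPM at 24 h, with replicate 4 lowest, and 0.817, 0.126, 0.737 and 0.178 CPM at 0 h (9.52 ± 0.36). Ifi206, Ifi208 and Ifi213, of the family that includes cytosolic DNA sensors, rose by 9.43 ± 0.20, 8.97 ± 0.23 and 8.88 ± 0.19 log2. Ifi44 rose by 9.39 ± 0.20 and Ms4a4c, a membrane protein gene of the MS4A family, by 8.89 ± 0.14, with at most 1.07 and 2.21 CPM in any 0 h library.

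The promoters of the 3 antiviral effectors and the 3 mitosis genes with the largest changes that have an entry are shown because these groups changed in opposite directions as blocks. Each window runs from 250 bases before to 50 after the annotated start, 5′ to 3′ on the gene's strand, from RefSeq on GRCm38.p6, and is in lower case. In the antiviral promoters capitals mark GAAANNGAA, the core of the interferon-stimulated response element, found on either strand. Oasl1 lies at chr5:114922990-114923289 on the plus strand, Ifit1bl1 at chr19:34601919-34602218 on the minus strand (the first of 2 annotated starts) and Slfn4 at chr11:83174936-83175235 on the plus strand.
Oasl1: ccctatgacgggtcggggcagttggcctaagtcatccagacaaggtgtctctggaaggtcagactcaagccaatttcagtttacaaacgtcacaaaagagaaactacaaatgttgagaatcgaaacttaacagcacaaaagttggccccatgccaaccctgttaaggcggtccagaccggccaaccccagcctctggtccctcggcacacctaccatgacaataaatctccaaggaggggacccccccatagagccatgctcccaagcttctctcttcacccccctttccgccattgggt
Ifit1bl1: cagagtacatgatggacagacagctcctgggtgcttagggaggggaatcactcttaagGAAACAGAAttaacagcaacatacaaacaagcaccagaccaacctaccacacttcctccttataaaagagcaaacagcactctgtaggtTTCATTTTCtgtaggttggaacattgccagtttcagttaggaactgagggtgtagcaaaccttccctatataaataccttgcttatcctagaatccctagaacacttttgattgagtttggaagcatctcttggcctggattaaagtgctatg
Slfn4: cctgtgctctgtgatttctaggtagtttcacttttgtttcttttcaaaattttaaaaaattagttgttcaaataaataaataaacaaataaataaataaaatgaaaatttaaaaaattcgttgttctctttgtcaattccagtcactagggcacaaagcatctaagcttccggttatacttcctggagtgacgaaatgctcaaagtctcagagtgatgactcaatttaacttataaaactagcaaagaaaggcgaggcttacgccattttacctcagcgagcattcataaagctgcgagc
Ifit1bl1 holds 2 matches, 192 and 103 bases before the start, the second of them on the opposite strand, and the other windows hold none of these letters. Of the 31 antiviral effectors with an entry, 19 (61.3%) hold the motif, against 8.6% of all 27025 promoters in the table. In the mitosis promoters capitals mark CCAAT and TTTGAA (the CCAAT box and the cell cycle homology region), each searched on both strands, and no matches overlap. Aspm lies at chr1:139454523-139454822 on the plus strand, Cdc20 at chr4:118437294-118437593 on the minus strand and Ccnb2 at chr9:70421505-70421804 on the minus strand.
Aspm: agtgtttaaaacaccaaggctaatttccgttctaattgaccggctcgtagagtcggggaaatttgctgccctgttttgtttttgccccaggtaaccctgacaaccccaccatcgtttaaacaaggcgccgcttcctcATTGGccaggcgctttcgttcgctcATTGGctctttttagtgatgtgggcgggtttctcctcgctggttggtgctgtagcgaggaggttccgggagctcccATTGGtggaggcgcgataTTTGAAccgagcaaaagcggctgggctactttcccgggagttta
Cdc20: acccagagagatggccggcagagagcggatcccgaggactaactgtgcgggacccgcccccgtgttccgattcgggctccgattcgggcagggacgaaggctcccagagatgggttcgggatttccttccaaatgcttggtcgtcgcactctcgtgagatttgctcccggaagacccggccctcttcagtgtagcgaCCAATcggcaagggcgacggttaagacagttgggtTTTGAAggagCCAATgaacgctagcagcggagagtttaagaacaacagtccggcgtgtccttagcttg
Ccnb2: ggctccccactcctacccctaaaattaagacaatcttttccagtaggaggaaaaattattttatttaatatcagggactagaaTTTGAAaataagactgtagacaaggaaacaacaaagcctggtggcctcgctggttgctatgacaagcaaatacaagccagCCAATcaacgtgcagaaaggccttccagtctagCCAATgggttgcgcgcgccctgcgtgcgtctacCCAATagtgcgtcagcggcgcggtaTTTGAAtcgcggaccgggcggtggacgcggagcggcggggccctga
Aspm holds 3 matches of CCAAT and 1 of TTTGAA, Cdc20 holds 2 and 1, and Ccnb2 holds 3 and 2. CCAAT was found in 24 of the 30 mitosis genes with an entry (80.0%) and in 37.9% of all promoters, and TTTGAA likewise in 24 of 30 (80.0%) and in 18.1% of all promoters. A match is a description of the letters and not a measured binding site.

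Interferon-inducible GTPases, which attack vacuoles that hold microbes, were called higher in 16 of 16 tested members (17 in the list), against 32.8% of all genes. Their median was 5.95 log2, or 5.31 with the 2 members at 0 counts in one group set to their bound. Gbp2, a guanylate-binding protein, lay at 572, 654, 554 and 508 CPM at 24 h and 7.03, 5.03, 6.26 and 5.52 CPM at 0 h (6.58 ± 0.13). Iigp1, an immunity-related GTPase, lay at 666, 577, 537 and 672 CPM at 24 h and 2.45, 2.77, 2.21 and 4.63 CPM at 0 h (7.66 ± 0.22). Irgm1, a regulator of the other immunity-related GTPases, had 192, 174, 166 and 198 CPM at 24 h and 29.6, 16.7, 16.9 and 16.6 CPM at 0 h (3.19 ± 0.14), replicate 1 being highest at 0 h. Tgtp1 had 2450 counts over the 24 h libraries and 0 over the 0 h libraries, which puts it at least 1004-fold higher with a floor of 3 counts over the group, though its tags can be shared with its close copy Tgtp2. Gbp4 had 1954 counts at 24 h and 3 at 0 h, a ratio of 801 with a 95% counting interval of 274 to 3888.

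Genes of the interferon system itself were also raised, with 19 of 20 listed ligands, receptors, kinases, factors and signalling inhibitors called higher (against 32.8% of all genes) and none lower (median 1.95). Those higher include the inhibitor genes Socs1, Socs3 and Cish, at 3.54 ± 0.26, 5.42 ± 0.15 and 2.84 ± 0.34. Ifnb1, interferon beta, was low but present at 24 h, with 3.92, 4.22, 3.86 and 5.27 CPM, and had 0 counts in every 0 h library. This puts it at least 36.5-fold higher. The receptor subunit gene Ifnar1 lay at 121, 137, 115 and 94.3 CPM at 24 h and 31.1, 26.3, 26.9 and 26.5 CPM at 0 h (2.07 ± 0.11). Irf7, which amplifies type I interferon production, had 664, 731, 668 and 748 CPM at 24 h and 1.63, 2.89, 1.84 and 4.63 CPM at 0 h (7.98 ± 0.17), the largest change in this list. No value at 24 h overlapped one at 0 h in Ifnb1, Ifnar1 and Irf7, as in 57.9% of all genes tested.

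**Figure D2:**
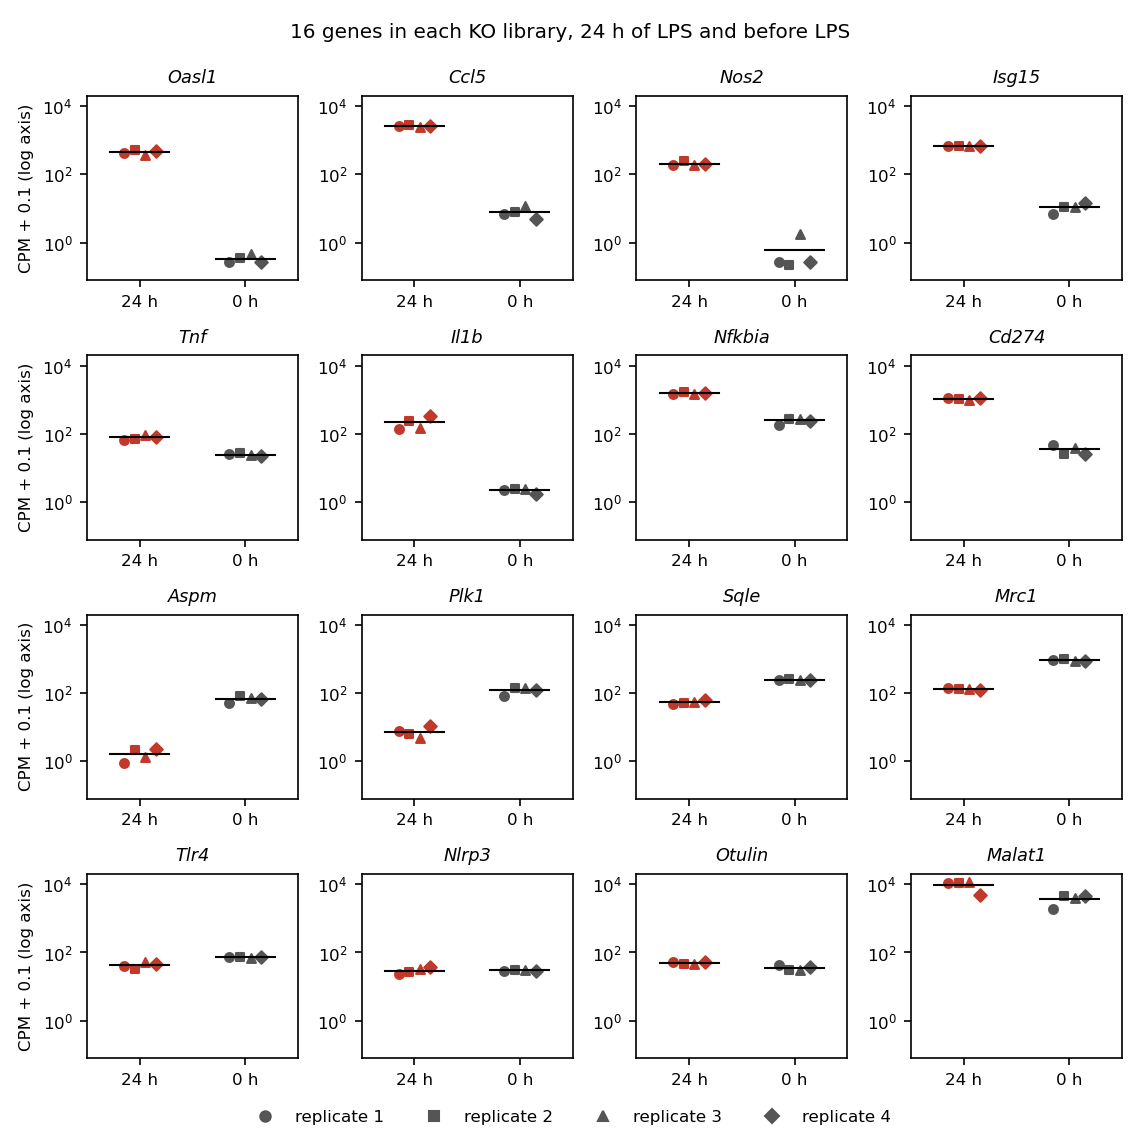
CPM (log axis, 0.1 added) of 16 genes in each KO library, with 24 h of LPS in red on the left and 0 h in grey on the right, symbols for replicates 1 to 4 and bars at the means. Oasl1, Ccl5, Isg15 and Cd274 are higher at 24 h and Aspm, Plk1, Sqle and Mrc1 lower without overlap, the groups overlap in Nlrp3, and replicate 4 of the 24 h group lies apart in Malat1.

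Upstream of these genes, in the LPS receptor machinery, 11 of 20 members were called higher (55.0%) and 3 lower (15.0%), with a median of 0.43. Of all genes 32.8% were called higher and 33.0% lower. Tlr4, the receptor, was lower: 41.3, 33.1, 52.2 and 47.1 CPM at 24 h against 72.9, 73.1, 69.4 and 75.0 CPM at 0 h, a change of −0.75 ± 0.11 (edgeR adjusted p = 2.66e-06). Its co-receptors Cd14 and Ly96 (MD-2) were higher, by 0.86 ± 0.21 and 0.51 ± 0.14. Cd14 varied widely at 24 h, with 176, 265, 181 and 307 CPM, against 165, 121, 105 and 116 CPM at 0 h. Among the adaptors and kinases Myd88 rose by 1.20 ± 0.088, Ikbke, an IRF-activating kinase, by 2.46 ± 0.13, and Irak3, a kinase-like inhibitor of the pathway, by 1.99 ± 0.16. Irak3 lay at 65.6, 64.7, 71.7 and 89.5 CPM at 24 h and 17.3, 19.6, 16.2 and 19.8 CPM at 0 h.

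In the NF-kB list 15 of 18 members were called higher and 1 lower (median 1.34), beside 32.8% and 33.0% of all genes. The inhibitor gene Nfkbia, which encodes IkB alpha, had 1460.2, 1666, 1478 and 1555 CPM at 24 h and 186, 279, 277 and 241 CPM at 0 h, a rise of 2.63 ± 0.11. Tnip3, a partner of the ubiquitin-editing inhibitor A20, rose by 2.73 ± 0.12, the most in the list, and Tnfaip3, which encodes A20, by 1.31 ± 0.18. Of the subunits Nfkb2 rose by 1.37 ± 0.12 and Rela by 0.75 ± 0.095. Nfkb1 lay at 50.7, 49.3, 51.4 and 37.0 CPM at 24 h and between 37.1 and 47.7 CPM at 0 h, with overlapping groups, and was not called (0.21 ± 0.13, adjusted p = 0.165). Without replicate 4 of the 24 h group Nfkb1 was called higher, at 0.33 (adjusted p = 0.0299). The one fall, that of Nfkbid, an atypical nuclear IkB protein, was −0.64 ± 0.27 (adjusted p = 0.041) and was lost when any 1 of 6 single libraries was left out (adjusted p = 0.0585 to 0.162).

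Genes of linear ubiquitin signalling were called higher in 12 of 16 members and lower in 1 (median 0.75), beside 32.8% and 33.0% of all genes. Rnf31, the catalytic subunit that builds linear chains, had 58.7, 73.8, 50.4 and 47.9 CPM at 24 h and 7.85, 12.6, 9.76 and 13.7 CPM at 0 h (2.37 ± 0.17; edgeR adjusted p = 2.03e-11). Of its partners Sharpin rose by 0.73 ± 0.11, while Rbck1 (HOIL-1) had 33.5, 35.6, 36.2 and 37.9 CPM at 24 h and 30.9, 37.8, 32.8 and 36.2 CPM at 0 h, with a 95% interval of the log2 difference of −0.18 to 0.26. Cyld, another deubiquitinase that cleaves linear chains, lay at 132, 123, 153 and 127 CPM at 24 h and 61.5, 103, 94.3 and 91.0 CPM at 0 h (0.60 ± 0.15). Birc3, a ubiquitin ligase of TNF receptor complexes, rose by 2.56 ± 0.10. Otulinl, the paralogue of Otulin that lacks deubiquitinase activity, was the member called lower, with 51.9, 45.1, 51.4 and 48.6 CPM at 24 h and 124, 137, 139.8 and 116 CPM at 0 h (−1.40 ± 0.12).

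Most of the secreted mediators tested were above the unstimulated level at 24 h. Of 22 listed cytokines 17 passed the filter on low counts, and of these 14 were called higher and 1 lower (median 4.20), beside 32.8% and 33.0% of all genes. Il1b lay at 135, 234, 152 and 343 CPM at 24 h and 2.13, 2.39, 2.39 and 1.60 CPM at 0 h (6.63 ± 0.36; edgeR adjusted p = 1.67e-11). Tnf rose less, with 65.6, 72.2, 91.1 and 82.6 CPM at 24 h and 25.2, 26.9, 23.4 and 22.8 CPM at 0 h (1.65 ± 0.11). Il6 had 192 counts over the 24 h libraries and 3 over the 0 h libraries, a ratio of 78.7 with a 95% counting interval of 26.5 to 385. The immunosuppressive cytokine gene Il10 had 50 counts at 24 h and 3 at 0 h, a ratio of 20.5 (6.62 to 103). Il12b, a subunit of interleukins 12 and 23, showed the largest rise of the list, with 40.1, 76.0, 64.2 and 60.5 CPM at 24 h and 0.327, 0.378, 0.737 and 0.178 CPM at 0 h (7.14 ± 0.46). Il1rn, the antagonist of the interleukin 1 receptor, had 1558, 1571, 1489.9 and 1589.9 CPM at 24 h and 63.8, 71.7, 77.5 and 121 CPM at 0 h (4.20 ± 0.15). The growth factor gene Csf1, which encodes M-CSF, was the member called lower, with 17.2, 21.3, 19.7 and 26.8 CPM at 24 h and 33.2, 36.1, 34.8 and 42.2 CPM at 0 h (−0.79 ± 0.12).

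Among 19 tested chemokines 17 were called higher and 1 lower (median 3.48), beside 32.8% and 33.0% of all genes. Ccl5, a T cell attractant, reached 2572, 2851, 2501 and 2677 CPM at 24 h, against 6.70, 7.93, 12.0 and 4.99 CPM at 0 h (8.38 ± 0.16; edgeR adjusted p = 7.77e-23). Cxcl10, a ligand of the receptor CXCR3, had 592, 658, 512 and 731 CPM at 24 h and 6.05, 8.18, 7.55 and 5.52 CPM at 0 h (6.48 ± 0.15). Its relative Cxcl9 had 3171 counts at 24 h and 2 at 0 h, a ratio of 1950 with an interval of 539 to 16110. Ccl2, the monocyte attractant, was present before LPS and rose moderately, with 836, 698, 939 and 1034 CPM at 24 h and 370.3, 290.5, 281 and 296 CPM at 0 h (1.49 ± 0.15). Ccl6 was the chemokine called lower, with 485, 458, 384 and 623 CPM at 24 h and 978, 848, 864 and 1018 CPM at 0 h (−0.94 ± 0.11).

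Other products of innate defence rose as strongly. Saa3, an acute phase serum amyloid A protein, had 3375, 3568, 3118 and 3711 CPM at 24 h and 14.2, 13.2, 21.5 and 9.44 CPM at 0 h (7.88 ± 0.21). Cfb, complement factor B, had 562, 686, 507 and 705 CPM at 24 h and 1.31, 0.881, 1.66 and 0.891 CPM at 0 h (9.01 ± 0.18). Lcn2, which binds bacterial siderophores, had 1376 counts at 24 h and 3 at 0 h (ratio 564, interval 193 to 2739), and Fpr1, a receptor for bacterial formyl peptides, had 1200 and 2 (ratio 738, interval 204 to 6100). In all, 69 called genes had at most 3 counts over the 0 h libraries, and 23 had at most 3 over the 24 h libraries.

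Of the genes of inflammasomes and cell death, 17 of 24 were called higher and 3 lower (median 0.95), beside 32.8% and 33.0% of all genes. Casp4, the sensor caspase for cytosolic LPS, had 101, 97.5, 74.6 and 74.7 CPM at 24 h and 9.97, 11.5, 11.6 and 7.13 CPM at 0 h (3.09 ± 0.14; edgeR adjusted p = 1.78e-15). Mlkl, the pore-forming executor of necroptosis, had 70.1, 74.4, 62.2 and 74.6 CPM at 24 h and 7.36, 11.2, 8.29 and 8.91 CPM at 0 h (2.95 ± 0.11). Its activating kinase gene Ripk3 had 6.66, 7.78, 5.69 and 9.34 CPM at 24 h and 10.1, 7.93, 7.18 and 8.19 CPM at 0 h, with overlapping groups and a difference of −0.19 ± 0.22 (adjusted p = 0.466). Casp8, the protease that restrains necroptosis, rose by 1.26 ± 0.15. The inflammasome sensor gene Nlrp3 lay at 23.1, 26.2, 32.3 and 36.4 CPM at 24 h and 28.9, 31.2, 30.8 and 29.6 CPM at 0 h, and the 95% interval of its log2 difference was −0.30 to 0.23. Nlrp1b, another inflammasome sensor, fell to 1.17, 1.11, 1.22 and 1.70 CPM at 24 h, against 3.11, 8.68, 8.10 and 6.41 CPM at 0 h (−2.32 ± 0.41), on few counts.

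Of 16 tested genes that brake inflammatory mRNA and MAP kinases 8 were called higher and 3 lower (median 0.57), beside 32.8% higher and 33.0% lower of all genes. Zc3h12a, which encodes the endonuclease Regnase-1, had 46.8, 60.0, 55.1 and 49.3 CPM at 24 h and 10.8, 10.9, 9.21 and 12.8 CPM at 0 h (2.25 ± 0.12). Zfp36 (tristetraprolin) rose by 1.76 ± 0.091. Among the phosphatases Dusp1 rose by 1.63 ± 0.14, whereas Dusp6, which acts on ERK, fell to 65.0, 44.7, 82.9 and 58.8 CPM at 24 h, against 242, 283, 274 and 279 CPM at 0 h (−2.11 ± 0.13).

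A pair of metabolic genes typical of activated mouse macrophages were among the strongest rises. Nos2, inducible nitric oxide synthase, had 187, 244, 186 and 206 CPM at 24 h and 0.163, 0.126, 1.66 and 0.178 CPM at 0 h, with replicate 3 highest at 0 h (8.66 ± 0.30; edgeR adjusted p = 1.65e-16). Acod1, which makes itaconate, had 2261, 2457, 2197 and 2635 CPM at 24 h and 14.4, 19.0, 20.4 and 16.4 CPM at 0 h (7.07 ± 0.13). Their list, on arginine, nitric oxide and itaconate, had 8 of 11 tested members higher and 2 lower (median 1.49), beside 32.8% and 33.0% of all genes. The 2 were Spr, at −1.25 ± 0.18, and Qdpr, at −0.98 log2, which make and recycle tetrahydrobiopterin, the cofactor of nitric oxide synthase. Gch1, of the same cofactor pathway, went the other way and was called higher, at 1.00 ± 0.098. Arg1, the arginase of alternatively activated macrophages, did not pass the filter on low counts.

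Glycolysis had 10 of 18 members higher (55.6%) and 4 lower (22.2%), beside 32.8% and 33.0% of all genes (median 0.24), with Pfkfb3, a regulator of phosphofructokinase, changing most: 300.4, 316, 246 and 285 CPM at 24 h and 63.9, 61.5, 66.8 and 51.8 CPM at 0 h (2.22 ± 0.14). Ldha rose by 0.56 ± 0.089 and Pfkp changed by −0.52 ± 0.12. The glucose transporter gene Slc2a1 had 53.7, 64.4, 68.3 and 68.6 CPM at 24 h and 83.2, 67.5, 78.1 and 65.6 CPM at 0 h and was not called (−0.22 ± 0.11, adjusted p = 0.0962). In the TCA cycle 5 of 21 were higher (23.8%) and 8 lower (38.1%), not far from the shares of all genes, with a median of 0.002. Idh1 fell to 114, 101, 107 and 101 CPM at 24 h, against 236, 221, 211 and 225 CPM at 0 h (−1.09 ± 0.11), and Suclg2, a succinyl-CoA ligase subunit, to 3.33, 2.44, 3.86 and 2.38 CPM, against 17.8, 10.9, 13.3 and 11.6 CPM at 0 h (−2.16 ± 0.24). Sdha, a succinate dehydrogenase subunit, lay at 215, 247, 204 and 223 CPM at 24 h and 232, 207, 221 and 212 CPM at 0 h (95% interval −0.14 to 0.18). Of 34 nuclear genes of the respiratory chain 7 were higher and 8 lower (median −0.043), both shares under those of all genes.

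Mitochondrially encoded transcripts were mostly lower: of 13 protein genes tested 8 were called lower and 1 higher, beside 33.0% lower and 32.8% higher of all genes. Their log2 fold changes ran from −3.22 to 0.72 (median −0.35). The mitochondrial share of all counts was 1.33 to 1.64% at 24 h and 1.99 to 2.25% at 0 h. mt-Nd1, a complex I subunit, had 842, 771, 754 and 772 CPM at 24 h and 2012, 1717, 1621 and 1871 CPM at 0 h (−1.21 ± 0.14; edgeR adjusted p = 1.14e-07). mt-Nd2 and mt-Cytb changed by −1.11 ± 0.13 and −1.09 ± 0.14. These 3 were among the 6 largest falls in CPM, beside Mrc1, Lgals3 and Eef1a1.

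Cholesterol synthesis was lower, with 20 of 23 members called lower and none higher, against 33.0% of all genes lower, and a median of −1.30. Sqle, squalene epoxidase, had 46.8, 51.3, 56.3 and 62.9 CPM at 24 h and 246, 254, 235 and 246 CPM at 0 h (−2.18 ± 0.10; edgeR adjusted p = 5.44e-16). Of 13 genes of cholesterol efflux 4 were higher (30.8%) and 4 lower (30.8%), shares near those of all genes (32.8% and 33.0%), with a median of 0.11. Nr1h3, the nuclear receptor LXR alpha, rose by 2.42 ± 0.13 and the transporter gene Abcg1 by 1.02 ± 0.13, while Ch25h, which makes 25-hydroxycholesterol, changed by −1.37 ± 0.39. Abca1 had 247, 217, 203 and 201 CPM at 24 h and 341, 241, 265 and 227 CPM at 0 h and was not called (−0.32 ± 0.15, adjusted p = 0.0616).

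Mitosis genes were lower without exception, 34 of 34 members against 33.0% of all genes, with a median of −3.18. Aspm, a spindle pole protein, had 0.783, 2.00, 1.22 and 2.21 CPM at 24 h and 52.5, 82.2, 70.9 and 69.3 CPM at 0 h (−5.45 ± 0.22; edgeR adjusted p = 1.08e-16). Cdc20, the activator of the anaphase-promoting complex, had 0.783, 0.222, 0.203 and 1.02 CPM at 24 h and 32.7, 24.5, 24.5 and 18.9 CPM at 0 h (−5.38 ± 0.34). Ccnb2, a mitotic cyclin, had 1.57, 0.444, 0.407 and 1.87 CPM at 24 h and 40.7, 32.2, 31.1 and 27.8 CPM at 0 h (−4.86 ± 0.25). Plk1, a mitotic kinase, had 7.44, 6.22, 4.88 and 11.0 CPM at 24 h and 83.0, 137, 139 and 121 CPM at 0 h (−4.01 ± 0.20). Replicate 4 was the highest 24 h library in all 4 of these genes, and every 0 h library lay far above it. Cdk1 was still at 27.4, 35.1, 29.7 and 49.4 CPM at 24 h, against 158, 136, 130.2 and 138 CPM at 0 h (−1.99 ± 0.16). The kinesin genes Kif20a and Kif2c and the mitotic genes Pimreg and Fam83d were also among the 12 lowest log2 fold changes once genes averaging under 5 CPM or near 0 in a group were set aside, from −4.75 in Kif2c to −5.55 in Pimreg. Outside this group the 12 held Cbfa2t3, a transcriptional corepressor (−4.99 ± 0.31), Pald1 (−4.94 ± 0.37), the receptor gene Gpr34 (−4.85 ± 0.47), the deubiquitinase gene Usp2 (−4.84 ± 0.24) and Nanos1 (−4.80 ± 0.33).

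Of 34 DNA replication genes 27 were called lower and 3 higher (median −1.37), beside 33.0% lower and 32.8% higher of all genes. Tk1, thymidine kinase, had 4.90, 3.56, 3.46 and 6.62 CPM at 24 h and 36.6, 42.2, 35.4 and 31.4 CPM at 0 h (−2.96 ± 0.20). Rrm2, a ribonucleotide reductase subunit, had 5.68, 4.67, 4.07 and 14.3 CPM at 24 h, with replicate 4 highest, and 74.1, 47.1, 57.1 and 47.2 CPM at 0 h (−2.94 ± 0.26). Mcm2, of the replicative helicase, changed by −1.59 ± 0.20. Against the list Pcna, the replication clamp, lay at 607, 507, 579 and 545 CPM at 24 h and 610.4, 340.1, 399 and 403 CPM at 0 h (0.34 ± 0.15, adjusted p = 0.0492), a call that was lost when any of 6 single libraries was left out and that grew to 0.55 without replicate 1 of the 0 h group.

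Of 16 tested regulators of cell cycle entry 9 were higher (56.2%) and 4 lower (25.0%), with a median of 0.49, beside 32.8% and 33.0% of all genes. Myc fell to 0.587, 1.11, 3.05 and 1.19 CPM at 24 h, against 20.4, 16.6, 16.8 and 15.5 CPM at 0 h (−3.54 ± 0.40), while Mxd1, an antagonist of Myc that binds the same partner, rose to 459.6, 513, 408 and 414 CPM, against 12.1, 14.6, 16.2 and 12.5 CPM at 0 h (5.01 ± 0.14). Cdkn1a, the inhibitor p21, had 707, 959, 741 and 821 CPM at 24 h and 242, 247, 331 and 234 CPM at 0 h (1.60 ± 0.12). Ccnd1 had 549, 579, 654 and 483 CPM at 24 h and 502, 476, 532 and 556 CPM at 0 h (95% interval −0.12 to 0.37).

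**Figure D3:**
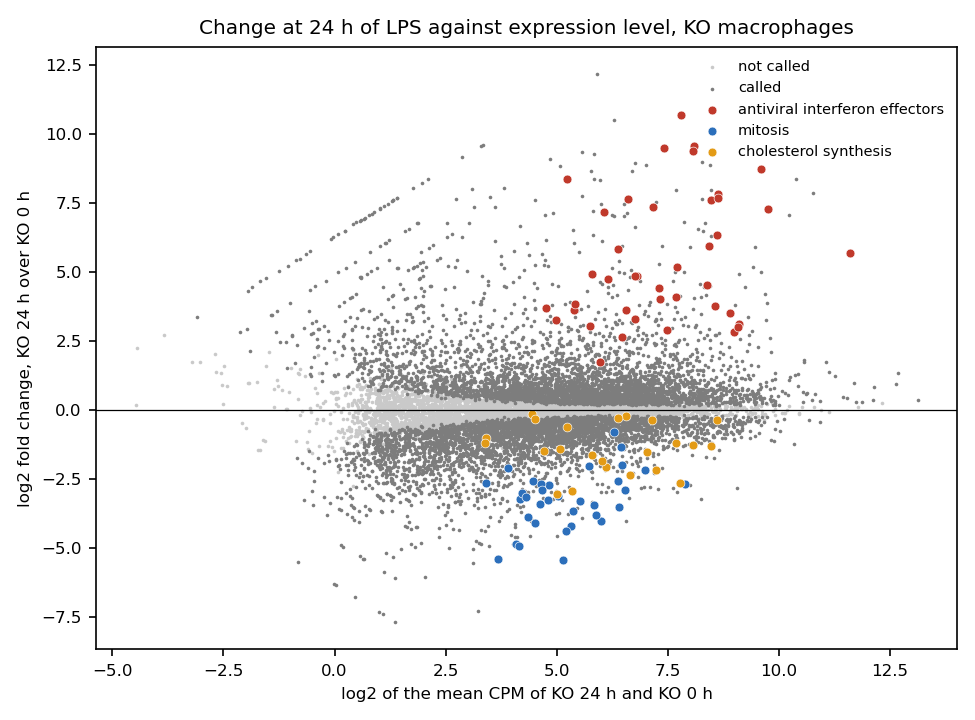
Log2 fold change, KO 24 h over KO 0 h (vertical axis), of 12037 genes against the log2 of their mean CPM in both groups (horizontal axis), called genes in dark grey, with antiviral effectors in red, mitosis genes in blue and cholesterol synthesis genes in orange. The antiviral effectors lie above 0 and the mitosis genes below 0.

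Antigen presentation rose. On the class I pathway 21 of 22 members were called higher and 1 lower (median 2.08), beside 32.8% and 33.0% of all genes. The H2-K1 heavy chain had 2423, 2420.1, 2138 and 2418 CPM at 24 h and 569, 667, 694 and 700.4 CPM at 0 h (1.82 ± 0.090; edgeR adjusted p = 6.27e-15). B2m, the class I light chain, rose by 1.37 ± 0.14, Tap1, of the peptide transporter, by 3.09 ± 0.10, and Psmb8, an immunoproteasome subunit, by 1.70 ± 0.11. H2-Q7, a non-classical class I gene with close copies, rose most, with 170.4, 159.8, 152 and 168 CPM at 24 h and 1.63, 4.03, 2.95 and 1.96 CPM at 0 h (5.88 ± 0.16). The chaperone gene Canx was the one lower (−0.23 ± 0.067).

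Class II and costimulatory genes were higher in 13 of 15 members and lower in 1 (median 2.32), beside 32.8% and 33.0% of all genes. Cd40, a costimulatory receptor, had 171, 188, 176 and 169.7 CPM at 24 h and 6.38, 5.41, 5.34 and 4.99 CPM at 0 h (4.98 ± 0.13; edgeR adjusted p = 1.08e-20). Cd274, which encodes the inhibitory ligand PD-L1, had 1087, 1028, 983 and 1132 CPM at 24 h and 48.4, 24.8, 39.4 and 25.8 CPM at 0 h (4.93 ± 0.17). Of the ligands of CD28, Cd86 rose by 2.35 ± 0.12 and Cd80 fell, at −0.45 ± 0.15. Cd74, the invariant chain, varied among the 24 h libraries, at 39.7, 32.0, 30.9 and 66.1 CPM, against 11.4, 5.41, 6.63 and 9.80 CPM at 0 h (2.35 ± 0.34).

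Of 25 tested genes of macrophage identity 11 were higher (44.0%) and 11 lower (44.0%), with a median of 0.024, beside 32.8% higher and 33.0% lower of all genes. Mrc1, the mannose receptor, fell to 143, 133, 129 and 122 CPM at 24 h, against 926, 990.4, 899 and 887 CPM at 0 h (−2.82 ± 0.14; edgeR adjusted p = 5.98e-15), the largest fall in CPM among the nuclear genes named. Adgre1, which encodes the F4/80 antigen, had 874, 899.9, 838 and 1004 CPM at 24 h and 517, 357, 408 and 343 CPM at 0 h (1.14 ± 0.12), and Spi1, the lineage factor PU.1, rose by 1.13 ± 0.11. Csf1r, the M-CSF receptor, lay at 441, 477, 458 and 503 CPM at 24 h and 551, 518, 480.0 and 480.4 CPM at 0 h (95% interval −0.28 to 0.03). Marco, a scavenger receptor, differed greatly between replicates, with 194, 223, 277 and 82.9 CPM at 24 h and 4.25, 6.80, 14.5 and 1.78 CPM at 0 h (4.83 ± 0.73).

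Stress, lysosomal and clock genes were called in both directions, to be read against 32.8% higher and 33.0% lower of all genes. Among NRF2 targets 7 of 17 were higher and 2 lower (median 0.17), with Prdx1 up by 1.24 ± 0.091, Hmox1 up by 0.95 ± 0.091 and Gclc, which makes a glutathione precursor, at −1.68 ± 0.12. In the unfolded protein response 5 of 17 tested members were higher and 2 lower (median 0.083). There Ddit3 (CHOP) had 184, 148, 164 and 151 CPM at 24 h and 28.0, 28.9, 27.6 and 21.7 CPM at 0 h (2.59 ± 0.12), Asns fell to 6.66, 6.00, 6.30 and 10.7 CPM, against 47.4, 28.8, 28.2 and 30.6 CPM at 0 h (−2.17 ± 0.19), and the chaperone gene Hspa5 changed by 0.29 ± 0.081. Of 29 lysosomal genes 13 were higher and 5 lower (median 0.13), with Ctsc at 2.15 ± 0.11, Ctsl at 0.59 ± 0.13 and the proton pump gene Atp6v0d2 at −1.59 ± 0.16. Tfeb, the master factor of lysosomal genes, was not called (0.28 ± 0.31), but its 0 h values of 20.6, 6.92, 9.76 and 8.37 CPM hold 1 high library, without which it was called higher, at 0.73 (adjusted p = 0.0251), with 14.3, 15.1, 14.0 and 12.2 CPM at 24 h. Of 14 tested clock genes 6 were higher and 2 lower (median 0.23), among them Per1 at 2.30 ± 0.26, Nfil3 at 2.52 ± 0.19 and Bhlhe40 at −1.28 ± 0.11. The fall of Arntl (BMAL1), −0.54 ± 0.20 with all libraries, rested on replicate 4 of the 24 h group: it had 16.4, 15.1, 14.8 and 6.79 CPM at 24 h and 18.1, 18.2, 21.2 and 18.9 CPM at 0 h, and without that library the change was −0.30 (adjusted p = 0.101). Without replicate 3 of the 0 h group it was −0.48 (adjusted p = 0.0548).

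Abundant transcripts also shifted. Malat1, a nuclear long non-coding RNA, had 10860.1, 10838, 11549 and 4789 CPM at 24 h and 1893, 4402, 3828 and 4548 CPM at 0 h (1.36 ± 0.32; edgeR adjusted p = 0.00125), with replicate 4 lowest at 24 h and replicate 1 lowest at 0 h, the 2 libraries that departed most. Fth1, the ferritin heavy chain, rose by 0.97 ± 0.15 and Actb by 0.83 ± 0.11. Exosc6, a subunit of the RNA exosome, fell to near 0, with 2 counts over the 24 h libraries and 479 over the 0 h libraries, 195-fold higher at 0 h with an interval of 53.6 to 1613. The early growth response gene Egr3 had 2 counts at 24 h and 197 at 0 h (80.1-fold higher at 0 h, interval 21.9 to 666), and Dnph1, a nucleotide hydrolase gene, had 3 and 142 (38.5-fold, interval 12.9 to 189). All 24 h counts of Exosc6 and of Dnph1 came from replicate 4, without which the fitted change of Dnph1 was −7.73 log2, against −5.04 with it.

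The earlier times place the 24 h levels within the KO time course. Against 3 h of LPS 7799 genes were called at 24 h (64.8%), 3926 higher and 3873 lower, and against 6 h 7366 (61.2%), 3843 higher and 3523 lower. These comparisons share the 24 h libraries with the one above, so their values are given side by side and are not independent. Of the 728 genes over 4-fold above 0 h at 24 h, 57 had their highest mean at 3 h, 243 at 6 h, 226 at 12 h and 202 at 24 h. Over all 12037 genes these counts were 1920, 2011, 1622 and 2859, with 3625 highest at 0 h. Of the 41 antiviral effectors 29 peaked at 6 h, and 31 were called lower and 4 higher at 24 h than at 6 h. Cytokines had mostly subsided, with 14 of 17 lower at 24 h than at 3 h and 15 lower than at 6 h, by a median of −2.16 and −2.39 log2. Tnf, for example, averaged 24.6 CPM at 0 h, 786 CPM at 3 h, 633 CPM at 6 h, 281 CPM at 12 h and 77.9 CPM at 24 h. Of 22 class I presentation genes 18 were higher and 2 lower at 24 h than at 3 h, whereas against 6 h 7 were higher and 9 lower (median −0.012), and 10 had their highest mean at 24 h. H2-Q7 averaged 2.64 CPM at 0 h, 48.8 CPM at 3 h, 44.1 CPM at 6 h, 87.3 CPM at 12 h and 163 CPM at 24 h. Mitosis genes were lower at 24 h than at 3 h in 34 of 34 members and lower than at 6 h in 26, while 2 were higher than at 6 h. Of 34 replication genes 15 were higher and 7 lower at 24 h than at 6 h and 12 were not called (median 0.23), beside 3843 higher and 3523 lower of all 12037 genes.

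Some genes rose later. Chosen as the highest 24 h changes among genes within 0.5 log2 of 0 h at 3 h, they include Tspoap1, which encodes a protein that binds the mitochondrial receptor TSPO and which averaged 5.01 CPM at 0 h, 3.83 CPM at 3 h, 12.3 CPM at 6 h, 75.0 CPM at 12 h and 164 CPM at 24 h. Its 24 h libraries had 191, 212, 179.7 and 73.6 CPM, with replicate 4 lowest, a change from 0 h of 4.99 ± 0.34. Klra2, a lectin-like receptor of the Ly49 family, averaged 4.82 CPM at 0 h, 4.64 CPM at 3 h, 15.3 CPM at 6 h, 35.8 CPM at 12 h and 73.4 CPM at 24 h. Il12rb1, a receptor subunit for interleukins 12 and 23, and Plpp1, a lipid phosphatase, were highest at 12 h and were 4.84 ± 0.22 and 4.46 ± 0.24 above 0 h at 24 h. Cd300e, an activating receptor of monocytes, and the zinc finger gene Zfp993 were 3.45 ± 0.35 and 3.34 ± 0.31 above 0 h.

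Other genes had receded by 24 h. In 12 genes the mean at 3 or 6 h was at least 8 times that at 0 h (0.5 CPM added), while the 95% interval of the 24 h difference from 0 h lay within 1 log2 unit of 0. Ccl3, a chemokine, averaged 46.6 CPM at 0 h, 1093 CPM at 3 h, 1122 CPM at 6 h, 226 CPM at 12 h and 64.4 CPM at 24 h, still slightly higher than at 0 h (0.46 ± 0.11, edgeR adjusted p = 0.000506). Ccl4 likewise remained 0.68 ± 0.10 above 0 h, and Ccnd2, a D cyclin, 0.53 ± 0.13 above it after a peak of 1052 CPM at 6 h. Stat5a averaged 13.2 CPM at 0 h, 124 CPM at 3 h and 13.1 CPM at 24 h, with a 95% interval of −0.27 to 0.23 for the last difference. Tlr2, the receptor for bacterial lipopeptides, averaged 34.7 CPM at 0 h, 506 CPM at 3 h and 27.9 CPM at 24 h (−0.32 ± 0.16, adjusted p = 0.0809). Tlr2 was called lower at 24 h than at 0 h without replicate 4 of the 24 h group (−0.48, adjusted p = 0.0130) and without replicate 4 of the 0 h group (−0.42, adjusted p = 0.0305). The scavenger receptor gene Olr1, the AP-1 related gene Jdp2 and the adhesion gene Zyx followed the same rule.

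**Figure D4:**
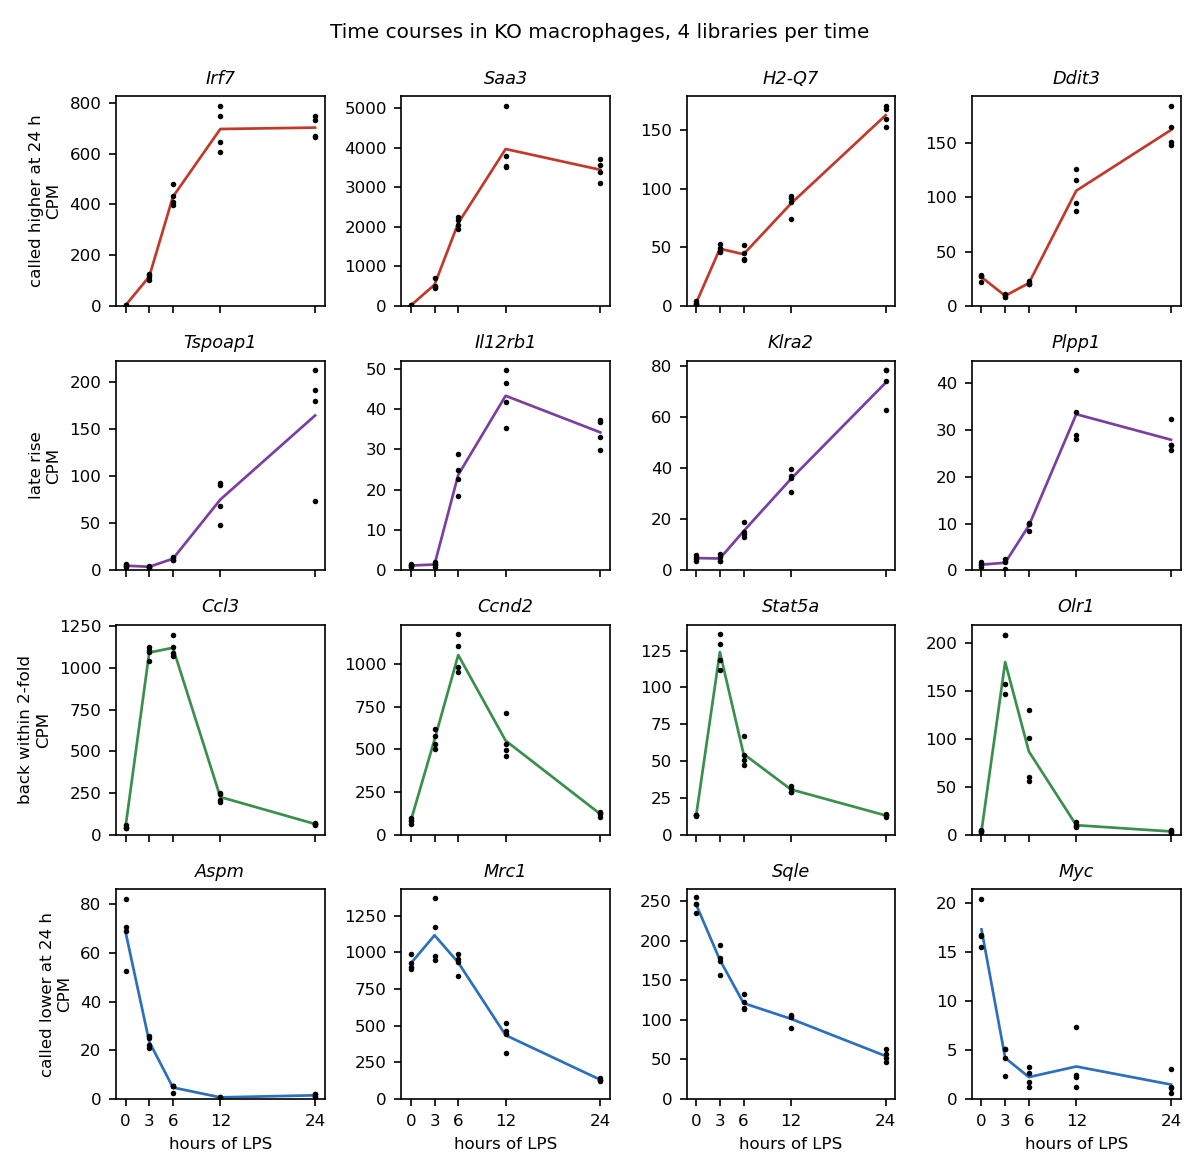
CPM (vertical axes, linear from 0) over hours of LPS (horizontal axes) in KO cells for 16 genes, with each library as a point and lines through the means of 4 libraries. Rows hold genes called higher at 24 h, genes rising late, genes back within 2-fold of 0 h and genes called lower at 24 h; the third row peaks at 3 or 6 h, with Stat5a at 124 CPM at 3 h and 13.1 CPM at 24 h.

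Whether the 24 h response depended on genotype was tested as the difference between the KO and WT changes from 0 h, over the 16 libraries of both. Of 12226 genes 1 was called (0.00818%), and 474 had an unadjusted p under 0.05. DESeq2 called 1 other gene, Il2rg, and limma voom called the same gene as edgeR. That gene is Gmfg-ps, a pseudogene named after its values were seen, whose tags can be shared with its parent gene. It had 11, 16, 11 and 29 counts in the KO 24 h libraries and 5, 7, 13 and 7 in the WT 24 h libraries, and 2, 0, 0 and 0 in the KO 0 h libraries and 10, 8, 8 and 10 in the WT 0 h libraries. The difference was 4.77 ± 0.77 log2 (edgeR adjusted p = 0.0399), a size that rests on 2 counts at KO 0 h. The call was lost when any 1 of 13 of the 16 libraries was left out, and it was kept without KO 24 h replicate 1 or 3 or KO 0 h replicate 1.

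Below the threshold the named genes with the smallest p were Il2rg, Otulin, Gnl3 and Cited2. Il2rg, the common cytokine receptor chain, had 233, 244, 251 and 261 CPM in KO and 292, 259, 256 and 259 CPM in WT at 24 h, and 62.3, 62.4, 74.2 and 74.1 CPM in KO and 51.1, 46.5, 51.0 and 54.9 CPM in WT at 0 h. The KO minus WT difference of its rise was −0.56 ± 0.12 log2 (adjusted p = 0.372), and this was the gene DESeq2 called. Otulin had 51.3, 46.4, 45.3 and 52.1 CPM in KO and 37.2, 35.5, 28.6 and 27.7 CPM in WT at 24 h, and 43.6, 30.8, 31.5 and 37.2 CPM in KO and 42.7, 38.5, 45.3 and 40.5 CPM in WT at 0 h. Its change was 0.80 ± 0.17 higher in KO (adjusted p = 0.372). Without replicate 1 of the KO 0 h group this difference was 0.90 and passed the test (edgeR adjusted p = 0.0383). For Gnl3, a nucleolar GTPase, the difference was 0.59 ± 0.13 and for the transcriptional regulator Cited2 −0.68 ± 0.15 (adjusted p = 0.473 for both).

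For most genes the data bound the genotype difference rather than leave it unknown. The 95% interval of the difference lay within 2-fold for 9312 of 11846 genes tested in both fits (78.6%). This held for 34 of 34 respiratory chain genes, 22 of 23 cholesterol synthesis genes, 28 of 34 mitosis genes and 24 of 41 antiviral effectors, but for 7 of 17 cytokines and 8 of 17 chemokines. Among genes called over 4-fold at 24 h it held for 322 of the 675 higher ones in both fits (47.7%) and 221 of the 527 lower ones (41.9%). The median difference was −0.010 log2 over all genes, 0.053 for antiviral effectors, 0.13 for mitosis and −0.16 for cholesterol synthesis. Tnf changed by 1.65 ± 0.11 in KO and 1.81 ± 0.16 in WT, with an interval of the difference of −0.64 to 0.34. For Il1b these were 6.63 ± 0.36 and 6.14 ± 0.46, with an interval of −1.33 to 2.34, and for Oasl1 10.71 ± 0.20 and 9.32 ± 0.20, with an interval of 0.05 to 2.80, which did not pass the test over all genes (adjusted p = 1). Mlkl, Nos2 and Aspm had intervals of −0.41 to 0.38, −0.22 to 3.03 and −0.98 to 0.64.

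**Figure D5:**
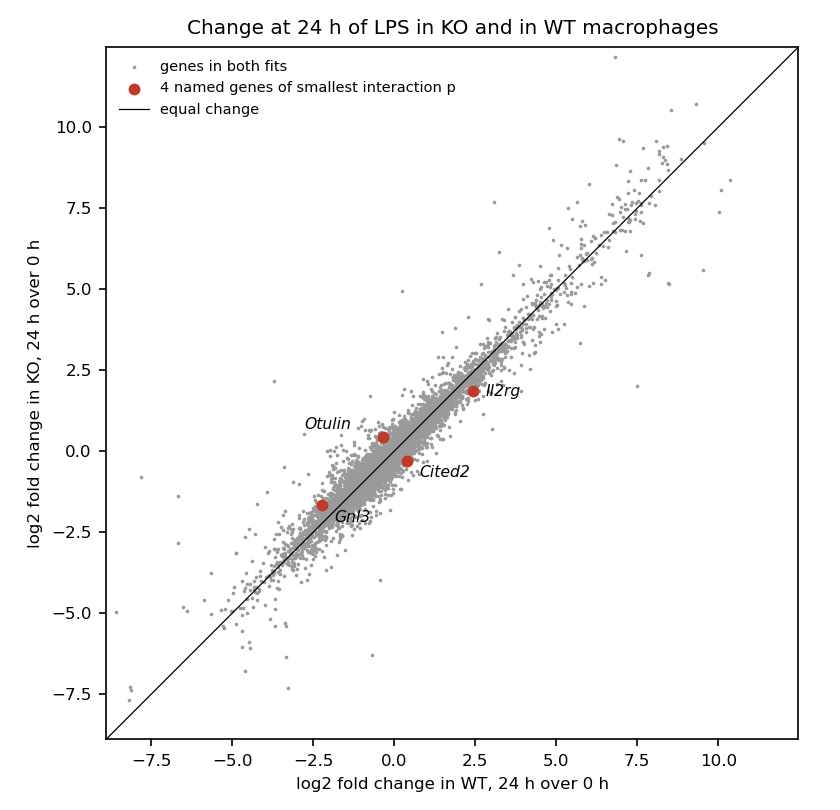
Log2 fold change, 24 h over 0 h of LPS, in KO (vertical axis) against WT (horizontal axis) for genes in both fits, with the line of equal change and the 4 named genes of smallest interaction p in red. Points lie along the line, and Otulin sits above it with a KO minus WT difference of 0.80 log2, which did not pass the test in the main fit.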

How the data were processed

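The values deposited by the authors are RSEM expected counts for 57010 Ensembl genes, without normalization and all whole, so rounding changed none. The submitters' processing notes name the genome build GRCm39 and, in no stated order, RSEM 1.3.3, STAR 2.7.10a, cutadapt 3.7, FastQC 0.11.9 and UMI-tools 1.1.2. The sources used here give no annotation release, strand setting or statement on collapsing molecular identifiers. Symbols came from GENCODE vM21 (GRCm38), for 52029 of the identifiers.

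Genes were kept by filterByExpr (minimum count 10) and tested with edgeR 4.0.16 in R 4.3.3: TMM scaling, a robust quasi-likelihood fit of the 20 KO libraries, two-sided F-tests and Benjamini-Hochberg adjustment over all genes tested. Log2 fold changes use a prior count of 0.125, each SE was obtained by dividing the log2 fold change's size by the root of its F value, and 95% intervals use the fit's degrees of freedom. Where a group held few counts, an SE so derived understates the counting error of a large change, and so does its interval. Oasl1, with 6 counts over the KO 0 h libraries, had an SE of 0.20 in each genotype and 0.66 for their difference. The genotype difference is the interaction over 16 libraries. The code was tested on simulated data. Every pair of replicates within the 2 groups differed beyond sampling noise (chi-square per degree of freedom 2.95 to 14.2, counting genes that had 20 or more counts in both libraries together), so each library counts once. Counting intervals and floors (3 counts) cover counting error only.

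Alternatives were RLE factors, DESeq2 1.42.0, limma 3.58.1 voom, no filter, a replicate block, other sets of libraries and leaving out each library. The gene lists, markers and comparisons were chosen with earlier results of these data known. Named genes are 8 fixed genes, 2 to 5 key genes of each list with its largest called rise and fall, the 12 strongest rises and 12 strongest falls on the log2 scale (called, groups not overlapping, mean of 5 CPM or more, over 3 counts in each group), those near 0 in one group with the highest level in the other, the 6 largest rises and falls in CPM, late and receding genes, and the smallest interaction p. Genes with numbered Gm or Rik symbols and pseudogenes were counted and not named, except where stated. Some genes that the rule selects are not reported here.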

Additional observations from a re-analysis of the deposited data

Results flagged for a closer look

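Within each group of 4 libraries the highest or lowest value was checked for standing apart by Dixon's ratio at its 95% critical value. Over 368 checks of named genes and principal components 36 stood apart, 13 of them replicate 4 of KO 24 h and 12 replicate 1 of KO 0 h. Chance gives about 1 in 20 for independent, normally spread values, but these checks share libraries. In Il6, Lcn2, Exosc6 and Dnph1 the flag follows from 0 counts in every other library of the group.

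Replicate 4 of KO 24 h lay at 49.1 on the second principal component, against 59.8 to 61.3 in the others. It was lowest in Mx1 (644 CPM), Nfkb1 (37.0 CPM), Nlrc5 (45.9 CPM), Arntl (6.79 CPM), Malat1 (4789 CPM) and Zfp993 (22.3 CPM). It was highest in Rrm2 (14.3 CPM), Ciita (10.5 CPM), Pfkp (62.5 CPM), Asns (10.7 CPM), Exosc6 (0.340 CPM) and Dnph1 (0.510 CPM). The last 2 values rest on 2 and 3 counts.

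Replicate 1 of KO 0 h was highest in Irgm1 (29.6 CPM), Ifnar1 (31.1 CPM), Nfkb1 (47.7 CPM), Ccl2 (370.3 CPM), Uqcrc1 (75.7 CPM), Sdhb (187 CPM), Asns (47.4 CPM), Pimreg (24.4 CPM), Lcn2 (0.490 CPM, from 3 counts) and Cd300e (1.31 CPM). It was lowest in Casp8 (25.5 CPM) and Slc7a11 (42.3 CPM).

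Among the other KO 24 h libraries replicate 3 stood apart in Casp8 (70.3 CPM, low), H2-K1 (2138 CPM, low) and Cd86 (114 CPM, high), replicate 1 in mt-Nd2 (680.2 CPM, high) and replicate 2 in Ccl4 (99.3 CPM, low). Among the other KO 0 h libraries replicate 2 stood apart in Il6 (0.378 CPM, high, from 3 counts) and Ifit2 (1.89 CPM, low), replicate 3 in Nos2 (1.66 CPM, high) and Cdkn1a (331 CPM, high), and replicate 4 in Apoe (528 CPM, low) and Zyx (35.4 CPM, high).

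The difference of the 24 h change between genotypes passed the edgeR test in Gmfg-ps, at 4.77 log2 (KO minus WT; adjusted p = 0.0399). It did not pass with DESeq2 (adjusted p = 0.0561), the replicate block (0.19) or all 40 libraries (0.0724), and over all settings run, left-out libraries included, the adjusted p ran from 0.000127 to 0.19.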

How the results depend on the processing

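Against 0 h the calls stayed within 1.5 times of 3944 higher and 3973 lower under every alternative run: 4130 and 3791 with RLE factors, 4067 and 3715 with DESeq2, 4007 and 4065 with limma voom, 4281 and 4293 without the filter, 3789 and 3813 with the 8 libraries alone, and 3753 to 4008 higher and 3692 to 3902 lower without 1 library. No called change of a named gene turned its direction, while changes near 0 that were not called, such as those of Nlrp3 and Lyz2, changed sign without some libraries. The replicate numbers were not taken to pair the samples: same-numbered 24 h and 0 h libraries correlated at −0.0086 to 0.29 in their deviations, and not every library correlated best with its own number. Sex marker genes did match by number at every time. Replicate 3 was male in KO cells and replicate 4 in WT cells, and the other numbers were female throughout. With the replicate block 4086 genes were called higher and 4114 lower, 8059 at 24 h against 3 h, 7625 against 6 h, and 0 in the genotype difference of the response (490 at an unadjusted p under 0.05). That difference gave 5 genes without the filter on low counts, 2 with all 40 libraries and 0 to 2 without 1 library. Fits without 1 library that called 0 genes had 376 to 680 genes at an unadjusted p under 0.05. Otulin was itself among the called genes without the filter, with all 40 libraries and without KO 0 h replicate 1. The cause of these shifts was not tested. Against 3 h and 6 h leaving out 1 library, an alternative chosen after seeing the data, gave 7455 to 7852 and 6962 to 7453 genes. Apart from left-out libraries, a call changed for 8 named genes: Abca1, Tlr2, Xbp1 and Ndufb8 passed the test, and Lamp1, Pcna, Nfkbid and Canx lost it, under at least 1 setting. Depth limits genes of few counts: for those with at most 3 counts in a group the size of the change rests on the counting interval.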

Other observations

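Further members of the lists, with the pathway named, had these values. Of the respiratory chain Cycs, which encodes cytochrome c, lay at 124, 118, 109 and 158 CPM at 24 h and 77.5, 58.5, 57.3 and 68.8 CPM at 0 h (0.95 ± 0.11; edgeR adjusted p = 5.07e-08), and Ndufs8, a complex I subunit, at 16.3, 22.7, 13.8 and 22.3 CPM at 24 h and 33.5, 31.5, 24.7 and 32.6 CPM at 0 h (−0.72 ± 0.15). These are the largest called rise and fall of the nuclear respiratory chain list. Sdhb, the iron-sulphur subunit of succinate dehydrogenase, rose by 0.51 ± 0.091, beside Sdha, which was not called.

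Transcriptional controllers of antigen presentation also rose. Nlrc5, the class I transactivator, had 52.1, 51.1, 51.6 and 45.9 CPM at 24 h and 7.52, 7.68, 7.92 and 8.02 CPM at 0 h (2.68 ± 0.12; edgeR adjusted p = 1.14e-15). Ciita, the class II transactivator, averaged 8.01 ± 1.70 CPM at 24 h and 1.63 ± 0.412 CPM at 0 h (SD, n = 4 each) and rose by 2.28 ± 0.24 log2.

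In the NRF2 list Slc7a11, the cystine transporter, averaged 53.2 CPM at 0 h, 391 CPM at 3 h, 215 CPM at 6 h, 124 CPM at 12 h and 56.9 CPM at 24 h, with a 24 h difference from 0 h of 0.09 ± 0.17 (edgeR adjusted p = 0.664). Nqo1 was low in every library, with 1.76, 2.89, 1.63 and 5.95 CPM at 24 h and 3.11, 3.52, 4.24 and 1.96 CPM at 0 h.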
